A study of Homo sapiens with 16 samples.

Results

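Krüppel-like factors (KLF) are zinc finger transcription factors, and 10 of them were followed here: KLF2, KLF3, KLF4, KLF6, KLF7, KLF9, KLF10, KLF11, KLF13 and KLF16. They were selected by gene symbol among the 27311 genes listed for each library, and all 10 were found. Gene expression was measured by SmartSeq2 RNA sequencing, which primes cDNA synthesis with oligo-dT, in 4 human immune cancer lines, each untreated or stimulated for 4 hours, with 2 libraries in each of the 8 groups. THP-1 is a monocytic line, and all 4 of its libraries came from cells carrying dCas9-KRAB, a Cas9 that does not cut, joined to a repressor domain. These cells received bacterial lipopolysaccharide (LPS), the ligand of TLR4, at 1 µg/ml. U937, a second monocytic line, received LPS at 200 ng/ml. Jurkat, a T cell line, received anti-CD3 at 5 µg/ml together with 100 ng/ml of PMA, a phorbol ester that activates protein kinase C. BJAB, a B cell line, received anti-IgM at 10 µg/ml together with anti-CD40 at 4 µg/ml. No agent was given to the untreated libraries of any line.

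The family binds GC-rich and CACCC elements in promoters through zinc fingers at the C terminus, while the N terminus differs between members and sets the partner. KLF2, KLF4, KLF6 and KLF7 are known mainly as activators, KLF3 represses through CtBP corepressors, and KLF9, KLF10, KLF11, KLF13 and KLF16 bind the SIN3A corepressor. In lymphocytes KLF2 is known for holding T cells quiescent and for driving genes of lymph node homing, in monocytes KLF4 is known for promoting differentiation, and KLF6 and KLF10 are known as early-response genes, KLF10 first of all downstream of TGF-beta.

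The lines carried the markers of their labelled types. All 10 monocytic markers reached 1 TPM (transcripts per 1000000, a level scaled for gene length and library size) in both untreated THP-1 libraries and 7 of 10 did in U937, where CD14 was at 0. All 10 T markers did so in Jurkat and all 10 B markers in BJAB. Depth, read from the steps of the TPM values, was 4125221 to 8431295 reads per library. The first of the stimulated libraries of U937, and likewise of BJAB, stood apart from its partner. With genes in 5 equal classes by length, the U937 library had a median log2 change against the untreated mean of 0.00 in the shortest class and -0.74 in the longest. With classes by GC content, the BJAB library had 0.03 in the lowest class and -1.06 in the highest. Changes called in BJAB are therefore also given without the 2 libraries that stood apart. That fit leaves 1 stimulated library in each of U937 and BJAB. KLF6 and KLF10 lie in the middle class of GC, where the BJAB library had a median of -0.17. No label says whether the libraries of a group came from separate cultures, so p-values and standard errors rest on a spread that may be technical.

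Promoter sequences were available in the RefSeq table (GRCh38.p14) for 8 of the 10 genes, in 12 windows, and not for KLF3 and KLF10. The 250 bases upstream of a start site are shown for KLF6, which rose in both lymphocyte lines, and for KLF11, which had no read in U937 or BJAB. The KLF6 window lies at chr10:3785210-3785459 on the minus strand, and the KLF11 window, which belongs to 1 of its 2 start sites in the table, at chr2:10043971-10044220 on the plus strand. Both run 5′ to 3′ in the direction of transcription, and capitals mark the GC box GGGCGG, on either strand, and the CRE core TGACG, on either strand.
KLF6: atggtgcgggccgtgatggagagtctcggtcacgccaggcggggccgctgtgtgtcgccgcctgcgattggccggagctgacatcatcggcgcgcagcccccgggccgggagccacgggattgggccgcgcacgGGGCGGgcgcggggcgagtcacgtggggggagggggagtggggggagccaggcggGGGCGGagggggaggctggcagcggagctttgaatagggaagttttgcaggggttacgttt
KLF11: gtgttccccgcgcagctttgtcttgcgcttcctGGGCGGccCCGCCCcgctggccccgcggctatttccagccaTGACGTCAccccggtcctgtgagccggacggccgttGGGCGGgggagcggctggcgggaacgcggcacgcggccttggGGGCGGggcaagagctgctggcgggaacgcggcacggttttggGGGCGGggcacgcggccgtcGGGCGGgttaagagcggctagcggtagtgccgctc
The KLF6 window was 72.4% GC and held 2 GC boxes. The KLF11 window was 74.4% GC and held 6 GC boxes and 2 overlapping CRE cores, 1 on each strand. Of 35116 RefSeq windows of this length, 42.64% held a GC box, the class of element that KLF and SP proteins bind, and 21.22% held a CRE core. On neither strand did either window hold the CACCC box CCACCC, present in 31.26% of windows. The same was true of the AP-1 site TGANTCA, present in 6.57% of windows, and of the TATA box TATAAA, present in 10.72%.

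After 4 hours, KLF6 and KLF10 rose in both lymphocyte lines, and no tested member passed the threshold (adjusted p under 0.05 over all 14398 tested genes) in the monocytic lines given LPS. Genes were tested when they reached 1 TPM in at least 2 libraries, which 9 of the 10 members did, with KLF2 the exception. KLF6, KLF10, KLF13 and KLF16 reached 1 TPM in all 16 libraries, and KLF3, KLF4, KLF9 and KLF11 had no read in some.

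**Figure D1:**
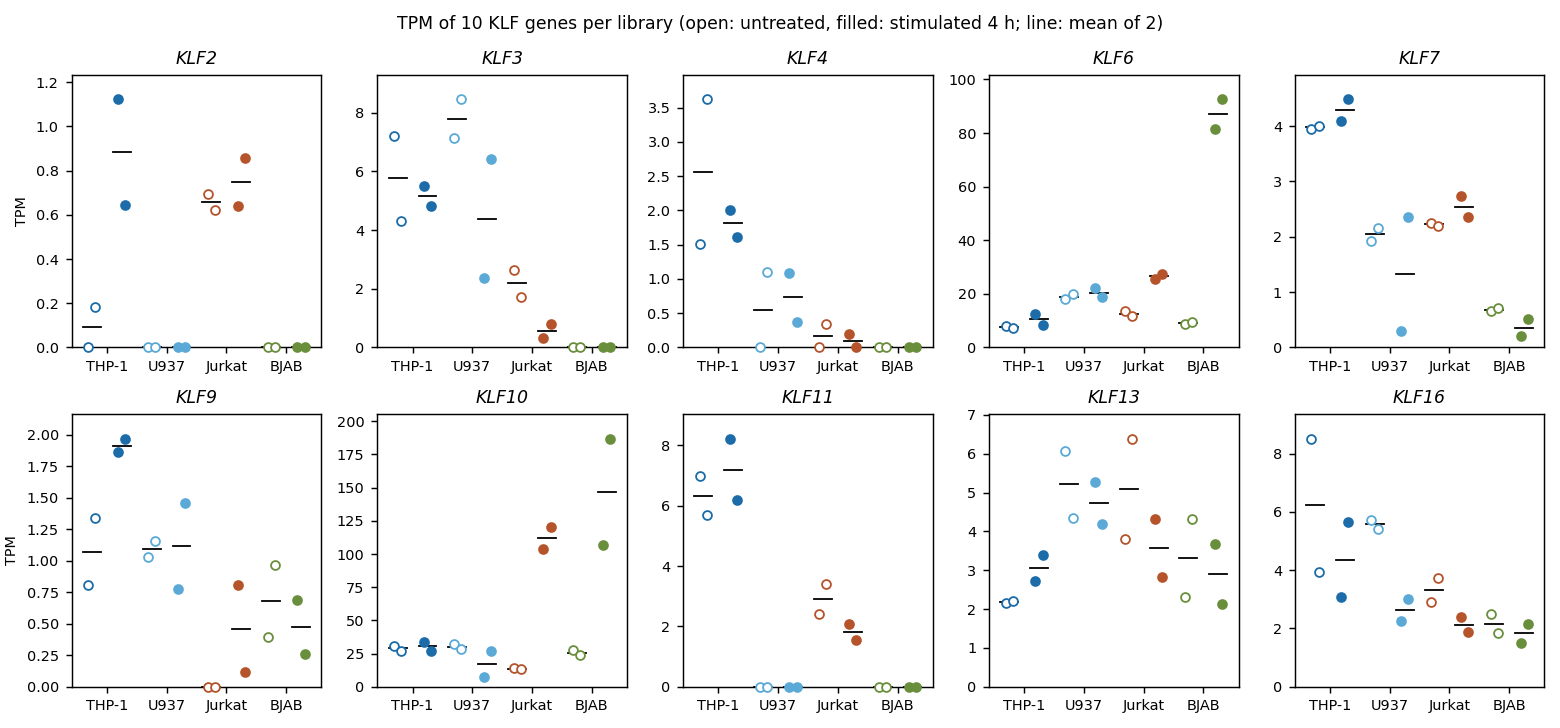
TPM (y axis, linear, a separate scale for each gene) of the 10 KLF genes in each of the 16 libraries by line (x axis). Open circles are untreated and filled circles stimulated libraries, and the line is the mean of 2. KLF10 stands between 104 and 187 TPM in stimulated Jurkat and BJAB and at or below 33.9 TPM elsewhere, and KLF6 reaches 81.4 and 92.6 TPM in stimulated BJAB.

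KLF10, also known as TGF-beta inducible early gene 1, was the member with the most reads, 10098 over the 16 libraries. In Jurkat it stood at 13.9 and 13.6 TPM untreated and at 104 and 121 TPM after anti-CD3 with PMA. In BJAB it stood at 27.8 and 23.7 TPM untreated and at 107 and 187 TPM after anti-IgM with anti-CD40. In both lines each stimulated library lay above both untreated ones. The ratio of means was 8.17 in Jurkat and 5.71 in BJAB. On the log2(TPM + 1) scale the rise was 2.94 ± 0.46 (SE, n = 2 per group) in Jurkat, with a limma adjusted p of 0.00238, and 2.42 ± 0.46 in BJAB, with an adjusted p of 0.0106. The Jurkat rise passed the threshold in 27 of 27 alternative settings and the BJAB rise in 24 of 27. The BJAB call was lost without the first (adjusted p = 0.0571) or the second (adjusted p = 0.0933) BJAB control and in a fit to the 4 BJAB libraries alone (adjusted p = 0.272). Without the 2 libraries that stood apart the rise was 2.82, with the second stimulated BJAB library alone in its group.

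No change of KLF10 passed in the monocytic lines. THP-1 held 30.8 and 26.9 TPM untreated and 33.9 and 27.0 TPM after LPS, a difference of 0.07 ± 0.46 (adjusted p = 1). In U937 it stood at 32.1 and 28.5 TPM untreated and at 7.23 and 26.9 TPM after LPS. The low value was that of the library whose longer genes were low, and the part of gene length in it was not tested. KLF10 lies in the middle length class, where that library had a median change of -0.69. The difference of -1.04 ± 0.46 had an adjusted p of 0.329, and without that library it was -0.16. Among untreated lines U937, THP-1, BJAB and Jurkat had means of 30.3, 28.8, 25.7 and 13.7 TPM, and the F test over the 4 lines did not pass (adjusted p = 0.181). No neighbours in this order passed the test of their difference, which gave adjusted p-values of 0.979, 0.851 and 0.201.

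KLF6, an early-response activator first described as a core promoter binding protein, rose in BJAB and less in Jurkat. In BJAB it went from 8.87 and 9.50 TPM untreated to 81.4 and 92.6 TPM stimulated. In Jurkat it went from 13.4 and 11.6 TPM to 25.7 and 27.5 TPM. The groups did not overlap in either line, and the ratio of means was 9.47 in BJAB and 2.12 in Jurkat. The BJAB rise was 3.11 ± 0.24 on the log2 scale, with an adjusted p of 1.68e-05. It passed in 26 of 27 alternatives, the exception being the fit to the 4 BJAB libraries alone (adjusted p = 0.0736). Without the 2 libraries that stood apart the BJAB rise was 3.20, with the second stimulated BJAB library alone in its group. The Jurkat rise was 1.03 ± 0.24, with an adjusted p of 0.0283. Its direction held in all 27 alternatives, but it passed in 15 of them, with adjusted p-values from 0.00487 to 0.212. It was lost, for example, with the replicate number as a block (0.120), under median-of-ratios scaling (0.0724) and without either library of either Jurkat group (0.101 to 0.212).

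The difference between the lines in the KLF6 change was itself tested. It was -2.08 ± 0.34 (Jurkat minus BJAB) with an adjusted p of 0.00341, and over the alternatives it ran from -2.36 to -1.84 with adjusted p-values of 0.00102 to 0.0335. For KLF10 the same difference was 0.52 ± 0.65 (adjusted p = 0.749), and this does not show that the 2 lines respond alike. In this contrast 1 of the 9 tested members passed, where 5.24% of all 14398 tested genes did. The lines were given different agents, so line and agent cannot be told apart here.

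In the monocytic lines KLF6 stood at 8.10 and 7.41 TPM in untreated THP-1 and 12.5 and 8.41 TPM after LPS, and at 18.0 and 19.8 TPM in untreated U937 and 22.1 and 18.9 TPM after LPS. Those changes were 0.37 ± 0.24 (adjusted p = 1) and 0.11 ± 0.24 (adjusted p = 0.867). Untreated levels differed between lines (F test, adjusted p = 0.00507), with means of 18.9 TPM in U937, 12.5 in Jurkat, 9.19 in BJAB and 7.75 in THP-1. U937 exceeded BJAB (adjusted p = 0.00785), a call lost without the second U937 control or without the first BJAB control. U937 also exceeded THP-1 (adjusted p = 0.00301). Its neighbour in that order, Jurkat, did not differ from it beyond the spread (adjusted p = 0.0987), nor did Jurkat from BJAB (0.240) or BJAB from THP-1 (0.544).

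**Figure D2:**
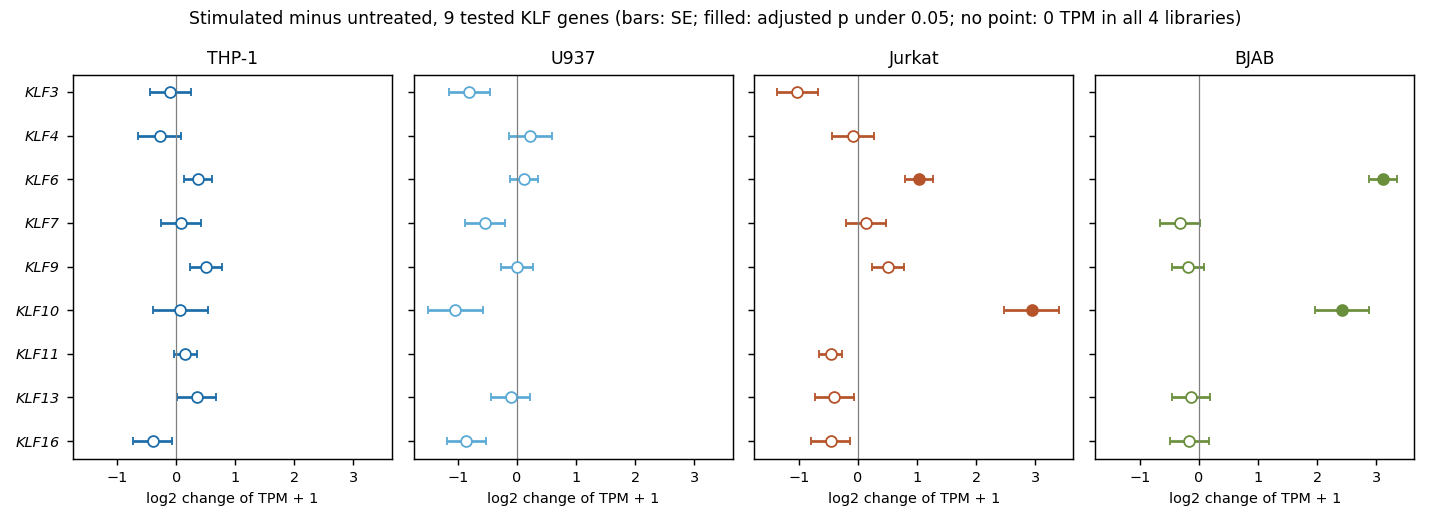
Log2 change of TPM + 1, stimulated minus untreated (x axis), for the 9 tested KLF genes (y axis) in the 4 lines. Points are fitted changes from 2 libraries per group, bars are SE, filled points have an adjusted p under 0.05, and a gene at 0 TPM in all 4 libraries of a line has no point. The filled points are KLF10 (2.94) and KLF6 (1.03) in Jurkat and KLF6 (3.11) and KLF10 (2.42) in BJAB.

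Across the family, KLF6 and KLF10 were thus the 2 of 9 tested members that passed in Jurkat, where 4.87% of all tested genes did (3.02% higher), and again the 2 of 9 in BJAB, where 6.4% did (1.63% higher). The members' median change was -0.08 in Jurkat, beside -0.03 over all tested genes, and 0.00 in BJAB, beside -0.14. After LPS none of the 9 passed in THP-1, where 0.167% of genes did, and none in U937, where 0.0278% did. At an unadjusted p under 0.05 limma counted 0 members in THP-1, beside 3.63% of all genes, and 3 in U937 (KLF3, KLF10 and KLF16), beside 15.1%, and voom on recovered reads, the other model run, called 0 in either line. Without the second LPS library of U937, which leaves the library that stood apart alone in its group, KLF3 (-1.38, adjusted p = 0.00717), KLF7 (-1.22, adjusted p = 0.00179) and KLF10 (-1.93, adjusted p = 0.00164) were called lower there, in a fit that called 34.7% of all tested genes (29.6% lower). Median changes were 0.09 in THP-1, beside -0.06 over all genes, and -0.11 in U937, beside -0.25. THP-1 and U937 were also compared in how far LPS changed each member, and this difference passed for 0 of 9, against 0.0486% of genes. At an unadjusted p under 0.05 it was 0 of 9 as well, and voom called 0. These lines also differed in LPS dose and in the dCas9-KRAB transgene.

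Summed over the 10 genes, KLF transcripts made up 42.0 and 43.6 TPM in untreated Jurkat and 143 and 159 TPM after stimulation. In BJAB the sum went from 42.5 and 41.0 TPM to 195 and 285 TPM. KLF10 made up 33.0 and 31.2% of the sum in untreated Jurkat and 72.6 and 76.1% in stimulated Jurkat. In BJAB its share was 65.4 and 57.7% untreated and 55.0 and 65.7% stimulated, and that of KLF6 went from 20.9 and 23.2% to 41.9 and 32.5%. The sums of the monocytic lines were 70.0 and 59.6 TPM in untreated THP-1, 75.0 and 64.2 TPM after LPS, 72.0 and 70.9 TPM in untreated U937, and 41.4 and 63.6 TPM after LPS. In bulk RNA, fewer expressing cells and less RNA per cell cannot be told apart.

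**Figure D3:**
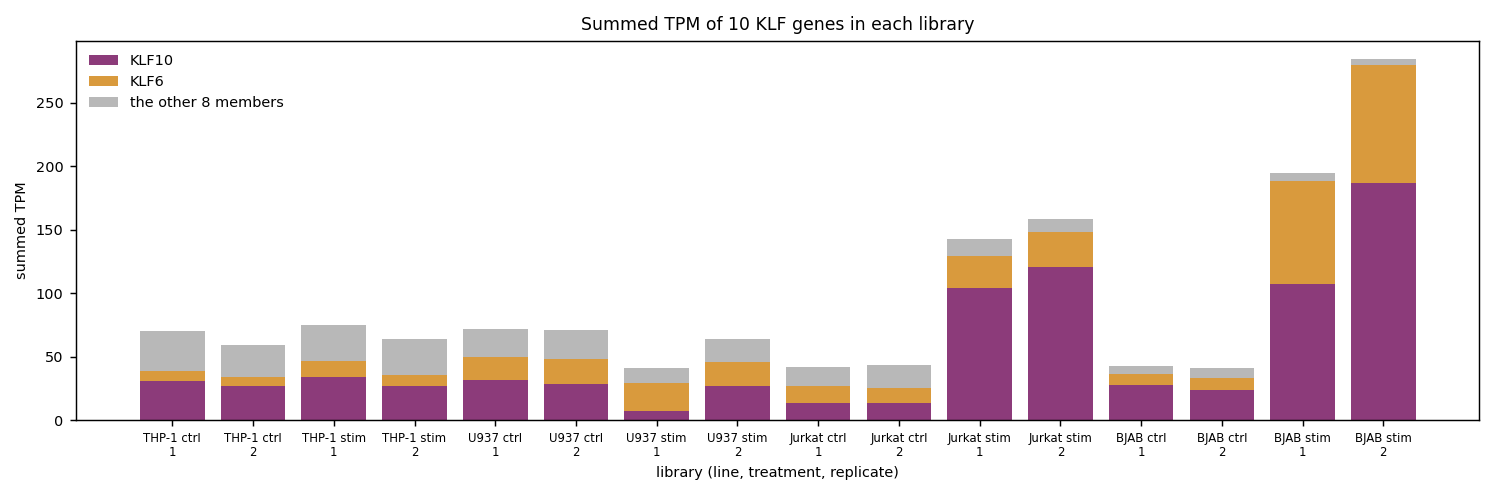
Summed TPM of the 10 KLF genes (y axis, from 0) in each library (x axis, line, treatment and replicate), split into KLF10, KLF6 and the other 8 members. The stimulated Jurkat (143 and 159 TPM) and BJAB (195 and 285 TPM) bars exceed all others, which reach at most 75.0 TPM.

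Among the remaining activators, KLF4, which promotes monocytic differentiation, was at 1.50 and 3.62 TPM in untreated THP-1 and at 2.01 and 1.61 TPM after LPS. U937 had 0 and 1.11 TPM untreated and 1.09 and 0.377 TPM after LPS, Jurkat had 0 and 0.349 TPM untreated and 0.200 and 0 TPM stimulated, and BJAB had no KLF4 read in any library. Untreated THP-1 exceeded U937 by 1.23 ± 0.36 on the log2 scale (adjusted p = 0.0268) and Jurkat by 1.55 ± 0.36 (adjusted p = 0.00542). The U937 call held in 20 of 26 alternatives. It was lost with a pseudocount of 0.1 (0.0878), quantile normalization (0.111), the replicate block (0.0827) and voom (0.0791). It was also lost without the first U937 control (difference 0.69) or the second THP-1 control (0.79). The Jurkat call held in 24 of 26 and was lost without the second THP-1 control (difference 1.11) or the first Jurkat control (1.34). Against a floor of 3 reads in each library, untreated THP-1 was at least 7.79-fold higher than BJAB (adjusted p = 0.00226), or 4.57-fold without the second THP-1 control. The other lines did not differ from each other beyond the spread. These are low values, of at most 42 reads a library.

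KLF7, a close relative of KLF6, had no change past the threshold. THP-1 held 3.95 and 4.01 TPM untreated and 4.10 and 4.48 TPM after LPS, and U937 held 1.93 and 2.17 TPM untreated and 0.305 and 2.35 TPM after LPS. Jurkat held 2.26 and 2.19 TPM untreated and 2.73 and 2.36 TPM stimulated, and BJAB 0.654 and 0.708 TPM untreated and 0.202 and 0.516 TPM stimulated. THP-1 had the highest untreated mean and BJAB the lowest (adjusted p = 0.00308 for this pair), and neighbours in the order THP-1, Jurkat, U937, BJAB did not differ beyond the spread. Its longest transcript shares 807 aligned bases at 92.1% identity with the pseudogene KLF7P1, so uniquely aligned reads may under-count it. The low U937 value, 0.305 TPM, was in the library whose longest genes were low, and the part of gene length in it was not tested.

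KLF2 was near the limit of detection, with 46 reads in all 16 libraries, and reached 1 TPM in 1 library, so it was not among the tested genes. THP-1 held 0 and 0.184 TPM untreated and 1.12 and 0.647 TPM after LPS, which is 0 and 2 reads against 12 and 6. Jurkat held 0.697 and 0.621 TPM untreated and 0.642 and 0.857 TPM stimulated, with 5 to 8 reads a library. U937 and BJAB had no read. With the filter on low values removed, the THP-1 difference was 0.78 ± 0.12 with an adjusted p of 0.0251, and the Jurkat difference was 0.07 ± 0.12 with an adjusted p of 1. These standard errors pool the spread of all groups, and those of U937 and BJAB, with no read, add none. They and the adjusted p-values therefore do not measure the spread of the THP-1 libraries alone.

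KLF3, the CtBP-binding repressor, had no read in BJAB and low counts in Jurkat. Jurkat held 2.63 and 1.73 TPM (53 and 28 reads) untreated and 0.320 and 0.800 TPM (6 and 15 reads) after anti-CD3 with PMA. The difference of -1.03 ± 0.35 had an adjusted p of 0.162. It passed in 3 of 27 alternatives, without the 2 libraries that stood apart (adjusted p = 0.0267, in a fit that called 13.5% of all genes) and without either U937 LPS library (0.0338 for each). THP-1 held 7.21 and 4.32 TPM untreated and 5.50 and 4.83 TPM after LPS, and U937 held 7.14 and 8.45 TPM untreated and 2.36 and 6.42 TPM after LPS. BJAB had 0 reads in all 4 libraries. Against the floor of 3 reads a library (0.175 TPM), untreated U937 was at least 44.5-fold higher than untreated BJAB, THP-1 at least 32.9-fold and Jurkat at least 12.4-fold. In untreated lines THP-1 exceeded Jurkat (adjusted p = 0.0319), a call that held in 23 of 27 alternatives. It was lost with a pseudocount of 0.1 (0.0691), without the first THP-1 control (difference 0.76) and without either Jurkat control. U937 also exceeded Jurkat (adjusted p = 0.00614), a call that held in 26 of 27. U937 did not differ from THP-1 beyond the spread (adjusted p = 0.465). KLF3 shares 1030 aligned bases at 88.1% identity with the pseudogene KLF3P1, and the antisense gene KLF3-AS1 had at most 1 read in any library.

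KLF11, a close relative of KLF10 and likewise named for induction by TGF-beta, had no change past the threshold. It had no read in any U937 or BJAB library. THP-1 held 6.98 and 5.70 TPM untreated and 8.22 and 6.18 TPM after LPS. Jurkat held 2.40 and 3.39 TPM untreated and 2.09 and 1.53 TPM stimulated, a difference of -0.47 ± 0.20 with an adjusted p of 0.318. It varied between untreated lines with the lowest F-test adjusted p of the 9 members, 2.13e-07. Its standard errors pool the spread of all groups, and those of U937 and BJAB, with no read, add none. Untreated THP-1 exceeded Jurkat by 0.92 ± 0.20 (adjusted p = 0.00303) and, against the floor of 3 reads, U937 by at least 21.8-fold and BJAB by at least 27.7-fold. Untreated Jurkat was at least 9.94-fold above U937 and 12.6-fold above BJAB.

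No change of the other SIN3A-binding members passed in the reported fit. KLF9, a glucocorticoid-inducible repressor, held 0.806 and 1.34 TPM in untreated THP-1 and 1.86 and 1.97 TPM after LPS (0.50 ± 0.27, adjusted p = 1). In Jurkat it had 0 and 0 reads untreated and 14 and 2 reads stimulated (0.805 and 0.115 TPM). The second of these libraries was below the floor of 3 reads, so no fold is given. The adjusted p was 0.519 in limma and 0.0302 in voom on recovered reads. U937 held 1.03 and 1.15 TPM untreated and 0.780 and 1.46 TPM after LPS, and BJAB 0.394 and 0.965 TPM untreated and 0.689 and 0.259 TPM stimulated. Untreated THP-1 and U937 exceeded Jurkat (adjusted p = 0.0106 and 0.0102). Both calls were lost without either Jurkat control, and each was lost without the second control of its own line. That of THP-1 was also lost under quantile normalization (adjusted p = 0.0577).

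KLF13, a factor known for late CCL5 expression in T cells, lay between 2.12 and 6.39 TPM in all 16 libraries. Untreated means were 5.21 TPM in U937, 5.09 in Jurkat, 3.31 in BJAB and 2.18 in THP-1, and the F test did not pass (adjusted p = 0.0703). Its changes ran from -0.40 ± 0.33 in Jurkat to 0.35 ± 0.33 in THP-1, and in Jurkat the first control (3.79 TPM) lay below the first stimulated library (4.33 TPM).

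KLF16, a repressor that also binds SIN3A, lay between 1.51 and 8.51 TPM. Untreated U937 held 5.74 and 5.41 TPM and U937 after LPS 2.25 and 3.03 TPM. The difference was -0.86 ± 0.33 with an adjusted p of 0.329, on 24 and 31 reads after LPS. THP-1 held 8.51 and 3.93 TPM untreated and 3.08 and 5.64 TPM after LPS, which overlap. Jurkat held 2.89 and 3.73 TPM untreated and 2.38 and 1.87 TPM stimulated, and BJAB 2.49 and 1.85 TPM untreated and 1.51 and 2.15 TPM stimulated. Untreated THP-1 and U937 exceeded BJAB (adjusted p = 0.0203 and 0.0280), calls that held in 23 and 20 of 27 alternatives. Both were lost without the second BJAB control (0.122 and 0.153), with the replicate number as a block (0.0781 and 0.0960) and under quantile normalization (0.112 and 0.0977). That of THP-1 was also lost without its first control (0.216), and that of U937 without either of its controls (0.118 and 0.0917), without the first BJAB control (0.0628) and in voom (0.0626).

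Taking the untreated lines alone, 7 of the 9 tested members differed between lines in the F test (KLF3, KLF4, KLF6, KLF7, KLF9, KLF11 and KLF16), where 56.3% of all tested genes did. KLF10 and KLF13 were the exceptions. THP-1 had the highest untreated mean for KLF4, KLF7, KLF11 and KLF16, and U937 for KLF3, KLF6, KLF9, KLF10 and KLF13. Of these leads over the next line, only those of KLF4 and KLF11 passed the test of the difference. That of KLF4 held in 20 of 26 alternatives and was lost, among others, without the first U937 control, as given above. KLF9 stood at 1.09 TPM in U937 and 1.07 in THP-1, and KLF16 at 6.22 TPM in THP-1 and 5.57 in U937.

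For the 3 members whose group means varied most, the genes with the most similar pattern were sought by Pearson r over the 8 group means of log2(TPM + 1), among 11423 genes with a group mean of at least 5 TPM. KLF6 was most like MORF4L1 (r = 0.96) and RTN4 (r = 0.95). The MORF4L1 mean went from 399 to 424 TPM in Jurkat and from 355 to 674 TPM in BJAB. That of RTN4 went from 22.9 to 25.3 TPM in Jurkat and from 14.7 to 52.5 TPM in BJAB. KLF10 was most like EGR1 (r = 0.95), an immediate-early zinc finger gene, and DNTTIP1 (r = 0.95). The EGR1 mean went from 5.49 to 384 TPM in Jurkat and from 12.0 to 303 TPM in BJAB. That of DNTTIP1 went from 40.8 to 82.3 TPM in Jurkat and from 69.9 to 116 TPM in BJAB. KLF3 was most like TRPM2 (r = 0.99) and CD4 (r = 0.99). Pearson r takes no account of the size of a change. The 8 means share lines and libraries, and these values describe likeness only.

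Other zinc finger factors and partner proteins of the family were examined next. Of 3 tested other KLF genes, 1 passed in Jurkat, where 4.87% of all tested genes did (1.85% lower). This was KLF1, an erythroid factor that fell from 6 and 7 reads to 3 and 0 (-0.86 ± 0.21, adjusted p = 0.0436, called in 6 of 27 alternatives). KLF12, a CtBP-binding repressor, held 16.2 and 20.9 TPM in untreated BJAB and 8.22 and 10.4 TPM in stimulated BJAB (-0.92 ± 0.30, adjusted p = 0.0909). Of the SP factors, the sister family that binds the same GC boxes, limma called 0 of 5 in each stimulation, with 3 at an unadjusted p under 0.05 in U937 (15.1% of all genes), 1 in BJAB (24.2% of all genes) and 0 in the others. Of the partner proteins, namely CtBP, SIN3 and HDAC corepressors with associated subunits and the ubiquitin ligase WWP1, it called 0 of 9 in each, with 1 at an unadjusted p under 0.05 in U937 and 0 in the others. Likewise voom called 0 of either list. HDAC1 had the highest level of those partners, with 741 and 694 TPM in untreated and 585 and 724 TPM in stimulated Jurkat. In THP-1 and U937 limma and voom called 0 members of these and of the following lists. At an unadjusted p under 0.05 limma counted 2 in THP-1, both among the 12 of the KLF2-linked list, beside 3.63% of all genes. In U937 it counted 2 of 9 in the ERK5 list, 1 of 12 in the KLF2-linked list and 1 of 10 in the TGF-beta list. There 15.1% of all genes did so.

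The ERK5 cascade and its MEF2 targets, with FOXO factors, feed the KLF2 promoter. In Jurkat 0 of 9 of these genes passed in limma and in voom (1 at an unadjusted p under 0.05 in each). In BJAB limma called 2 of 9, both lower, and voom called 3, beside 8.07% of all genes in voom. Over all tested genes 13.1% had an unadjusted p under 0.05 in Jurkat, and 4.76% were called lower in BJAB. MEF2C fell from 48.0 and 46.0 TPM to 14.7 and 19.2 TPM in BJAB (-1.43 ± 0.26, adjusted p = 0.00792). MAPK7, which encodes ERK5, went from 5.77 and 4.64 TPM to 0.540 and 2.43 TPM (-1.42 ± 0.36, adjusted p = 0.0389), and this call was lost without the 2 libraries that stood apart (adjusted p = 0.136) and held in 10 of 27 alternatives. That of MEF2C held in 24 of 27 and was lost without the first (0.0589) or second (0.0565) BJAB control and with the BJAB libraries alone (0.258). Without the 2 libraries that stood apart the MEF2C change was -1.25, with the second stimulated BJAB library alone in its group. The list median in BJAB was -0.24, beside -0.14 over all genes. The summed level of the 10 B markers moved in the same libraries, from 6843 and 7344 TPM untreated to 2390 and 4778 TPM stimulated, and its part in the BJAB falls was not tested.

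Among 12 lymphocyte genes linked to KLF2, 4 passed in Jurkat, 3 higher and 1 lower, and 2 passed in BJAB, both higher, beside 4.87% and 6.4% of all tested genes. CDKN1A, a cell cycle inhibitor, rose in Jurkat from 2.64 and 0.922 TPM to 196 and 183 TPM (6.17 ± 0.74, adjusted p = 0.000323). CD69, an early activation antigen that retains cells by binding S1PR1, rose from 50.3 and 37.5 TPM to 627 and 815 TPM in Jurkat (4.01 ± 0.27, adjusted p = 3.14e-06) and from 1.02 and 1.12 TPM to 28.6 and 26.0 TPM in BJAB (3.77 ± 0.27, adjusted p = 1.05e-05). KLF2 itself had at most 8 reads in a Jurkat library and 0 in BJAB. The CD69 rise in BJAB, like that of CCR7, was lost in the fit to the BJAB libraries alone (adjusted p = 0.123 for each). Without the 2 libraries that stood apart, those BJAB rises were 3.71 for CD69 and 6.54 for CCR7, from the second stimulated BJAB library alone.

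CCR7, the chemokine receptor of lymph node homing, rose in Jurkat from 3.51 and 2.83 TPM to 23.3 and 28.4 TPM (2.69 ± 0.31, adjusted p = 0.000282) and in BJAB from 1.01 and 0.233 TPM to 96.7 and 145 TPM (6.25 ± 0.31, adjusted p = 1.64e-06). S1PR1, the receptor for tissue exit and a direct KLF2 target, fell in Jurkat from 12.0 and 11.7 TPM to 8.05 and 6.87 TPM (-0.61 ± 0.14, adjusted p = 0.0271). That call held in 18 of 27 alternatives. It was lost with a pseudocount of 0.1 (0.550), in voom (0.499), with the Jurkat libraries alone (0.163), under quantile normalization (0.0807), without a trend (0.0600), with the replicate number as a block (0.113) and without the first (0.103) or second (0.0783) control or the second stimulated Jurkat library (0.107). The list median was -0.10 in Jurkat, beside -0.03 over all genes, and 0.00 in BJAB, beside -0.14.

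**Figure D4:**
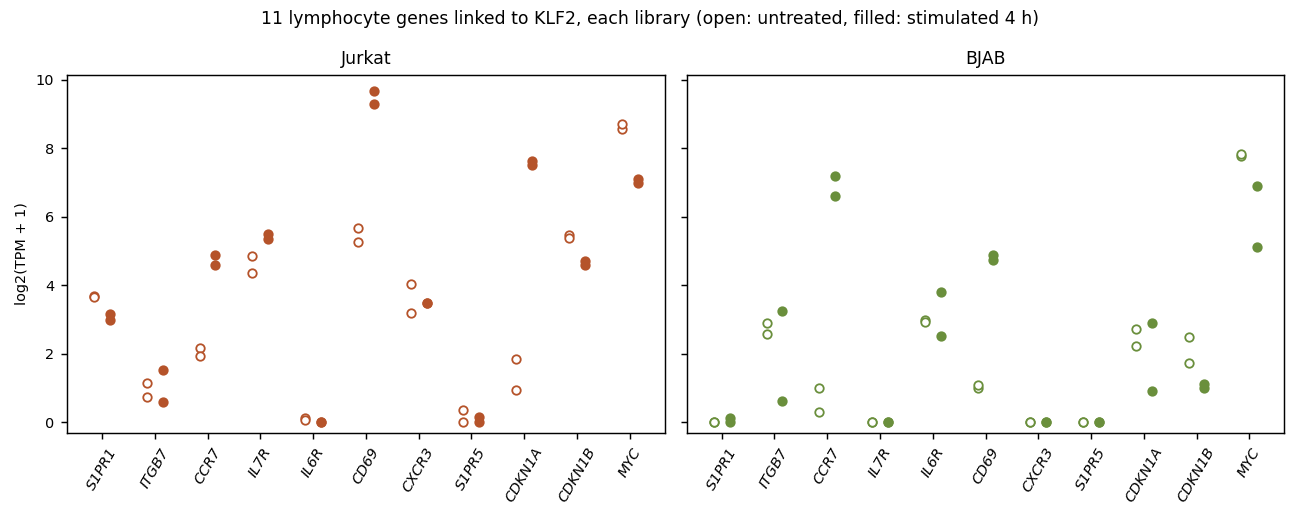
Log2(TPM + 1) (y axis) of 11 of the 12 lymphocyte genes linked to KLF2 (x axis) in each Jurkat and BJAB library. Open circles are untreated and filled circles stimulated. CD69 and CCR7 are higher in all stimulated libraries of both lines, CDKN1A is higher in both stimulated Jurkat libraries, and S1PR1 is lower in stimulated Jurkat (12.0 and 11.7 to 8.05 and 6.87 TPM).

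Of 10 TGF-beta pathway genes, which connect to KLF10 and KLF11, 1 passed in Jurkat and 0 in BJAB, beside 4.87% and 6.4% of all tested genes. For BJAB limma counted 0 at an unadjusted p under 0.05, beside 24.2% of all genes, and voom called 0. TGFBR2, the ligand-binding receptor chain, rose in Jurkat from 10.1 and 10.4 TPM to 46.8 and 28.6 TPM (1.74 ± 0.41, adjusted p = 0.0311), a call that held in 18 of 27 alternatives. It was lost with the replicate number as a block (0.106), without any single Jurkat library (0.0573 to 0.255) and without either THP-1 control (0.0529 and 0.0527). The TGFBR2 call was also lost with a pseudocount of 0.1 (adjusted p = 0.0743) and with the Jurkat libraries alone (adjusted p = 0.107). In BJAB the 2 list members with the highest level were SKIL, a SMAD corepressor, at 39.0 and 38.1 TPM untreated and 59.8 and 50.3 TPM stimulated (adjusted p = 0.589), and SMAD2, at 15.5 and 17.5 TPM untreated and 19.3 and 14.2 TPM stimulated (adjusted p = 1). The list medians were -0.05 in Jurkat, beside -0.03 over all genes, and 0.15 in BJAB, beside -0.14.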

How the data were processed

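RNA was sequenced from 16 SmartSeq2 libraries of 4 cell lines. Per the submitters' processing notes, reads were aligned with TopHat2 to hg19. The sources used here name no counting program, annotation or version. The deposited files hold TPM from uniquely aligned reads, 27311 genes per library, and each library sums to 1000000. From the steps of the TPM values, whole reads were recovered at a tolerance of 0.001 for 17860 of 19092 detected genes (93.5%). Floors of 3 reads cover counting error only, since PCR reads are not independent molecules.

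Libraries formed 8 groups of 2 by label. Genes with at least 1 TPM in at least 2 libraries (14398) were fitted as log2(TPM + 1) with limma 3.58.1 in R 4.3.3, all 16 libraries together, 1 coefficient per group and a trend. The fit had 8 residual and 3.18 prior degrees of freedom, so the spread was pooled over lines. A group with no read of a gene adds no spread to the standard error of that gene. Tests were two-sided, Benjamini-Hochberg adjusted over all tested genes, at a threshold of 0.05. This scale understates changes of low genes, and each change has 2 libraries a side. The fit was tested on simulated data. Summaries used Python 3.11.15 with pandas 2.3.3 and numpy 2.4.6. Length and GC content came from GENCODE transcripts and covered 96.2% of tested genes.

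Named genes were the 10 members and, per list and stimulation, up to 4 list members past the threshold, otherwise the 2 with the highest TPM, of which some are printed. For the 3 members with the widest range, the 2 most similar genes were named. 1 gene of the KLF2-linked list is not reported here, though it counts in that list's numbers. Members and lists were chosen with earlier results of these data known. Alternatives were pseudocounts of 0.1 and 5, no filter, a TPM minimum of 5, quantile normalization, median-of-ratios scaling, a replicate block, a fit without trend, the compared libraries alone, voom on recovered reads, leaving out the first stimulated library of each of U937 and BJAB, and leaving out each library in turn.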

Additional observations from a re-analysis of the deposited data

Results flagged for a closer look

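The change of KLF6 on stimulation differed between the 2 lymphocyte lines by a test of the difference itself. It was 1.03 ± 0.24 in Jurkat (12.5 to 26.6 TPM, means of 2 libraries) and 3.11 ± 0.24 in BJAB (9.19 to 87.0 TPM). Jurkat minus BJAB was -2.08 ± 0.34 on the log2 scale (limma, adjusted p = 0.00341), and both BJAB libraries changed more (3.02 and 3.20) than both Jurkat libraries (0.98 and 1.08). The difference passed in 27 of 27 alternatives. It was -2.17 without the first stimulated library of each of U937 and BJAB, which leaves the second stimulated BJAB library alone in its group. Line and agent cannot be told apart, since Jurkat received anti-CD3 with PMA and BJAB anti-IgM with anti-CD40.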

How the results depend on the processing

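The number of members called in THP-1 was 0 in the reported fit, 1 with no filter on low values (KLF2) and 0 to 0 on leaving out single libraries. In U937 it was 0, and 0 to 3 on leaving out single libraries, with KLF3, KLF7 and KLF10 called without the second LPS library, where 34.7% of all genes were called. The LPS difference between THP-1 and U937 gave 0, and likewise 0 to 3 without single libraries, the 3 without that same library, where 17.8% of all genes were called. In Jurkat it was 2, and 1 (KLF10) under median-of-ratios scaling, quantile normalization, the replicate block and the fit to the 4 Jurkat libraries alone, with 1 to 3 on leaving out single libraries. Besides the Jurkat libraries, leaving out either THP-1 control or either U937 control ended the KLF6 call there (adjusted p = 0.0515 to 0.0524). In BJAB it was 2, and 0 with the 4 BJAB libraries alone, with 1 to 2 without single libraries (KLF10 lost without either BJAB control). In voom the Jurkat count was 3, with KLF9 called besides KLF6 and KLF10. Jurkat minus BJAB gave 1 in all settings. The untreated lines gave 7, and 4 of 6 tested at a TPM minimum of 5, where fewer genes were tested, with 5 to 8 on leaving out single libraries and 9 without the first stimulated library of each of U937 and BJAB, where 82.7% of all genes were called against 56.3% in the reported fit. Where no cause is named, the cause was not tested. No member called in the reported fit changed direction under any alternative.

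No label says what a replicate number marks, and deviations of same-numbered libraries correlated at 0.01, -0.04, 0.02 and 0.14 in THP-1, U937, Jurkat and BJAB, so the numbers were not taken as pairs. With the replicate block the counts were 0 in THP-1, 0 in U937, 1 in Jurkat, 2 in BJAB, 0 for the LPS difference, 1 for Jurkat minus BJAB and 6 in the untreated lines (KLF16 lost). The floor of 3 reads used for genes at 0 corresponds to 0.175 TPM for KLF3 in untreated BJAB.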
